A study of Mus musculus with 30 samples.

Results

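Clock, Arntl (which encodes BMAL1), Npas2 and Arntl2 (which encodes BMAL2) form the positive arm of the mammalian circadian clock. They were taken as all non-control probes whose gene name in the array files is 1 of these 4, out of 28146 gene names in all. They have 8 of the 41174 probes on the array, of which 7 are among the 29947 probes that were bright enough to be tested. Their levels were measured in hypothalamic RNA of 30 mice, on 1 Agilent 1-colour array per mouse. Per3 5/5 mice (n = 7, called Boxhill in the sample labels) and Per3 4/4 mice (n = 8, called Coach) are homozygous for a knock-in in which exon 18 of mouse Per3 is replaced by human exon 18 with the 5-repeat or the 4-repeat allele of its variable-number tandem repeat. The wild-type (WT) mice number 15. Knock-in and WT lines are on a C57BL/6 background. By the paper, a separate transgenic line was made for each repeat allele, and knock-in and WT mice came from the same conditional animals. These were crossed to animals with ubiquitous, PGK-driven Cre at ROSA26. The lines carry no Cre themselves and were bred in-house from homozygous pairs, so that any difference between the lines beyond the knock-in goes with genotype. By the study's methods, the mice were first kept in a daily light-dark cycle. All mice then lived, from its light onset, under cycles of 3.5 h of light and 3.5 h of darkness. Brains were collected in the light of cycle 17. This ultradian schedule has alternating short light and dark phases around the clock, and it was given to every group. Each sample was a dissected block of hypothalamus.

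CLOCK and BMAL1 are transcription factors of the basic helix-loop-helix PAS family that bind DNA as a pair, at E-box sequences, and switch on the Per and Cry genes, the Rev-erb genes Nr1d1 and Nr1d2, and output genes such as Dbp. PER and CRY proteins then feed back to inhibit CLOCK:BMAL1, which closes the loop, while the REV-ERB and ROR proteins repress and activate Arntl from sites in its promoter. NPAS2 can take the place of CLOCK in the pair, most clearly in the forebrain, and BMAL2 can take the place of BMAL1. In the suprachiasmatic nucleus, the pacemaker within the hypothalamus, Arntl and Per genes cycle in opposite phase. The comparison addresses whether the human repeat alleles of Per3, a gene of the negative arm, go with other levels of the genes of the positive arm.

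The bases that report each gene are shown because the 4 Clock probes and the 2 Arntl2 probes gave different readings, described further on, and what a value measures is the stretch a probe hybridizes to. Each probe has 60 bases, and the first 30 are given 5' to 3' in lower case as the array's own annotation lists them, with positions of the whole probe in mouse build mm9. No annotation of that build was used here, so whether a probe lies in coding sequence or in an untranslated region was not determined.
Clock A_52_P334670, chr5:76641377-76641436, minus strand: ttcccatttgagttgctcttgtaatatttt
Clock A_52_P334677, chr5:76641773-76641832, minus strand: ccgtttttaaaggatccctaatcatcactt
Clock A_52_P279391, chr5:76664578-76664637, minus strand: tggtggacccttactagaaagaatcacaga
Clock A_52_P161365, chr5:76683410-76683469, minus strand: tagcgatcatgacagatggaagtataatat
Arntl A_52_P267651, chr7:120456978-120457037, plus strand: aacccccacataggcatcgatatgatagat
Npas2 A_52_P534749, chr1:39418941-39419000, plus strand: agatgggatgaagcgtttacgtgattttgg
Arntl2 A_51_P163015, chr6:146767402-146769054, plus strand: aaggaacaactttcttgtgatggttcacca
Arntl2 A_52_P61188, chr6:146771157-146771216, plus strand: tcatgttatgaatattttcatcaggatgac
In the annotation's transcript of Clock, A_52_P334670 starts at base 7243, A_52_P334677 at base 6847 and A_52_P161365 at base 755, and A_52_P279391 was designed on a separate cDNA. Arntl2 A_51_P163015 spreads its 60 bases over 1653 bases of genome and therefore crosses at least 1 intron.

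The arrays came in 2 runs that differ in the scanner output, with the Per3 5/5 mice and WT replicates 1 to 7 in run 1 and the Per3 4/4 mice and WT replicates 8 to 15 in run 2. Between the WT arrays of the runs 61.9% of the tested probes differed at an adjusted p under 0.05 (limma), so each knock-in was compared with the WT arrays of its own run. The 75th percentile of spot intensity, to which each array was scaled, ranged from 347 to 1546, and 58.6 to 74.6% of spots were well above background by the scanner's own mark. Of 14 hypothalamic marker genes tested, 13 were well above background on every array, while WT replicate 10 had 11 of the 14 below every other WT array of its run (summed log2 level 4.60, others 7.21 to 9.39) and 7 of 9 striatal markers above them. WT replicate 14 had 8 of 9 pituitary markers above the other arrays of its group (10.43 on the log2 scale, others 0.90 to 5.44). In Per3 4/4 replicates 6 and 7 the probes of the Y-linked genes Ddx3y, Eif2s3y and Kdm5d were at background and Xist was not, at 1.52 to 1.78 against at most -4.47 on the other 28 arrays, although the study describes male mice. Values without an array stand beside some of the results that it moved. Of 100 marker entries on 12 lists of tissues and cell types, 0 passed the test in either knock-in, and the summed level of each list overlapped between knock-in and WT. Before adjustment, 2 entries had a limma p under 0.05 in Per3 5/5, both of cortex and hippocampus, beside 6.17% of all tested probes. In Per3 4/4 it was 4, with 3 of choroid plexus, beside 1.73%. The list with the median difference furthest from 0 was cortex and hippocampus in Per3 5/5 (-0.52) and choroid plexus in Per3 4/4 (0.79). Hypothalamic markers had medians of 0.24 and 0.38. The probe for Per3 itself was well above background on all 30 arrays and differed from WT by -0.23 (SE 0.20, limma p = 0.255) in Per3 5/5 and 0.23 (SE 0.19, limma p = 0.227) in Per3 4/4, on the log2 scale. Whether it lies in the replaced exon was not determined, so it does not check the labels.

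No gene of the positive arm passed the test in either knock-in. At an adjusted p under 0.05 (limma, Benjamini-Hochberg over all tested probes), 0 of the 7 tested probes differed between Per3 5/5 and WT, beside 0% of all tested probes (0 of 29947). In Per3 4/4 the count was 0 of 7, beside 0.0134% of all tested probes (4 of 29947), and for the difference between the effects of the alleles it was 0 of 7, beside 0%. Without adjustment, the number of the 7 probes with p under 0.05 was also 0 in each comparison, while 6.17%, 1.73% and 2.98% of all tested probes had such a p. Those shares rested in part on single arrays: the 1849 probes in Per3 5/5 became 806, 863 and 949 without replicates 3, 5 and 6 and 2913 without replicate 1, and the 519 in Per3 4/4 became 1555 without WT replicate 13 and 1324 without Per3 4/4 replicate 7. The 892 for the difference between alleles became 534 and 533 without Per3 5/5 replicates 3 and 5, and 1419 and 1356 without Per3 5/5 replicate 1 and WT replicate 13. The count of 0 members before adjustment did not hold under every alternative. Clock probe A_52_P334670 had an unadjusted p of 0.0244 in Per3 5/5 by the methods' t-test, run on the same values, and of 0.0383 by limma with only the arrays of run 1. With array weights in limma, 1 of the 7 probes had such a p in Per3 5/5, 1 in Per3 4/4 and 2 for the difference between alleles, all of Clock, the lowest being 0.00815 (adjusted p = 0.355). In a bulk sample, fewer cells that carry an RNA and less of it per cell cannot be told apart. The level of each probe below is the log2 intensity relative to the array's 75th percentile, so that 0 is that percentile, and levels of different probes are not comparable.

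**Figure D1:**
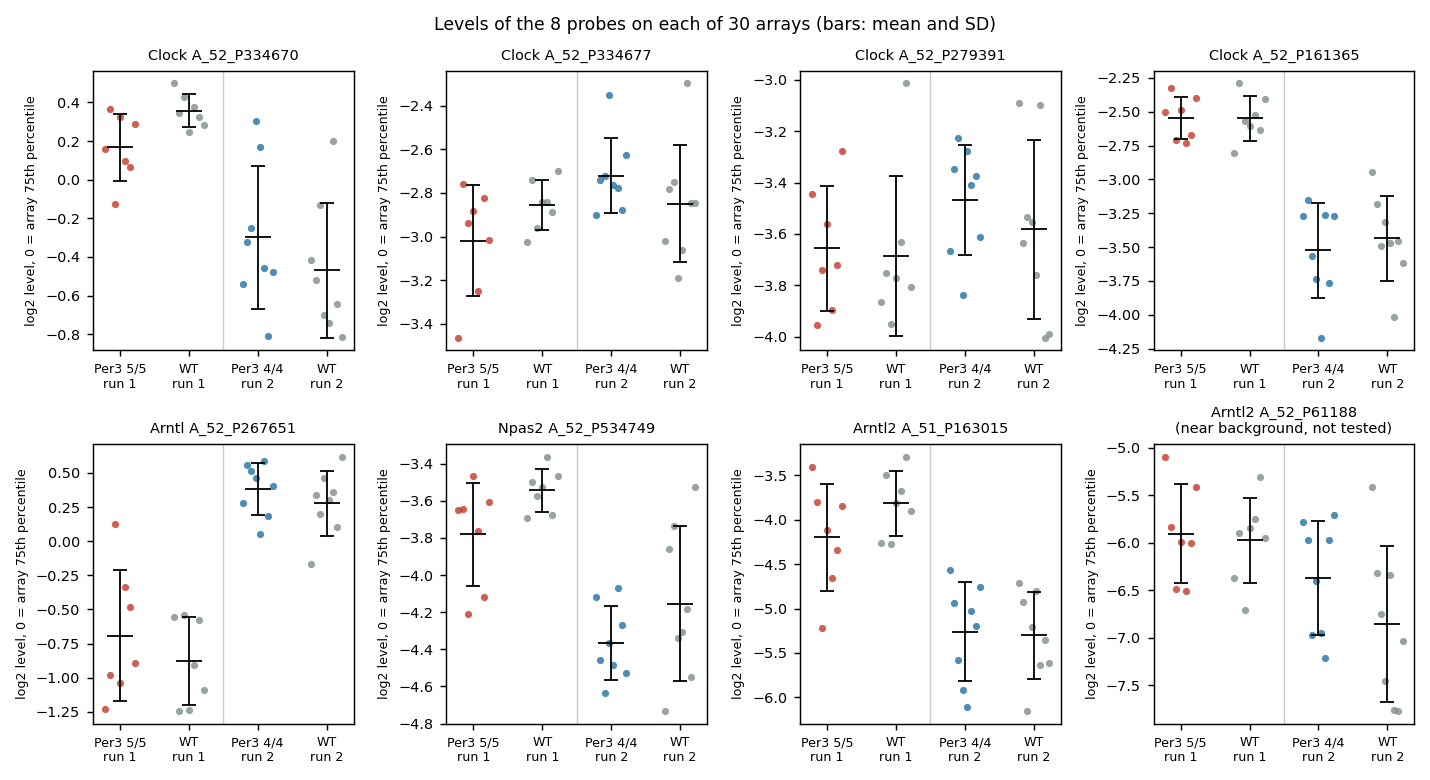
Log2 level of the 8 probes (y axis, relative to each array's 75th percentile) in Per3 5/5 (n = 7) and WT (n = 7) mice of run 1 and in Per3 4/4 (n = 8) and WT (n = 8) mice of run 2, with 1 point per array and the mean and SD as bars. Knock-in and WT arrays overlap within each run for each probe, and the offset between the runs is larger than any difference between genotypes for Arntl, Npas2, Arntl2 A_51_P163015 and the Clock probes A_52_P334670 and A_52_P161365.

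Clock encodes the DNA-binding partner of BMAL1. Its brightest probe, A_52_P334670, spanned -0.13 to 0.37 in Per3 5/5, with a median of 0.16, and 0.24 to 0.50 in WT mice of run 1, with a median of 0.34. In run 2 it spanned -0.81 to 0.30 in Per3 4/4, with a median of -0.39, and -0.81 to 0.20 in WT, with a median of -0.58. In Per3 5/5, 6 of 7 arrays lay below the WT mean and 4 below every WT array, whereas the remaining 3 fell within the WT range, and the Per3 4/4 arrays spread over almost the same range as their WT arrays. The difference from WT was -0.19 (95% confidence interval -0.50 to 0.12, limma p = 0.219, adjusted p = 0.878) in Per3 5/5, a fold of 0.877, and 0.17 (-0.12 to 0.46, limma p = 0.232) in Per3 4/4, a fold of 1.13. These point in opposite directions, and the difference between them, -0.36 (-0.78 to 0.06), had a limma p of 0.0906 before adjustment and of 1.00 after it. Without Per3 4/4 replicates 6 and 7, whose Y-linked probes were at background, it was -0.47 (unadjusted limma p = 0.0277, adjusted p = 0.860). The Per3 5/5 value was -0.14 without Per3 5/5 replicate 3, the lowest array of that group, and -0.22 without replicate 2, the highest. The Per3 4/4 value was 0.086 without Per3 4/4 replicate 4, 0.10 without replicate 5 and 0.27 without WT replicate 13 (unadjusted limma p = 0.0491).

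The neighbouring Clock probe A_52_P334677, which starts at base 6847 of the transcript, gave the same signs with smaller values. It spanned -3.46 to -2.76 in Per3 5/5, with a median of -2.94, and -3.02 to -2.70 in WT of run 1, with a median of -2.84, a difference of -0.16 (SE 0.12, limma p = 0.189). The run 2 values spanned -2.90 to -2.35 in Per3 4/4, with a median of -2.75, and -3.19 to -2.30 in WT, with a median of -2.85, a difference of 0.13 (SE 0.11, limma p = 0.260). Its difference between alleles was -0.29 (-0.63 to 0.05, limma p = 0.0877). Leaving out WT replicate 13, whose Clock level was the highest of the WT arrays of run 2 by both probes, gave unadjusted limma p-values for the difference between alleles of 0.0212 and 0.0180, with adjusted p-values no lower than 0.923. The Per3 5/5 value of A_52_P334677 was -0.087 without Per3 5/5 replicate 1, and the Per3 4/4 value was 0.076 without Per3 4/4 replicate 4, 0.080 without WT replicate 11 and 0.21 without WT replicate 13.

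The other Clock probes did not share these signs. A_52_P279391 differed from WT by 0.03 (-0.28 to 0.34) in Per3 5/5 and by 0.11 (-0.18 to 0.41) in Per3 4/4, where it was 0.18 without WT replicate 8 or 13, 0.053 without WT replicate 14 and 0.056 without WT replicate 15. A_52_P161365, nearest the start of the transcript, ranged from -2.73 to -2.33 in Per3 5/5 and from -2.80 to -2.29 in WT of run 1, a difference of 0.00 (-0.30 to 0.30), and it differed by -0.09 (-0.37 to 0.19) in Per3 4/4. Across the 30 arrays, taken as deviations from the mean of each genotype and run, A_52_P334670 correlated with A_52_P334677 at r = 0.55 (0.02 in run 1, 0.74 in run 2), but with A_52_P161365 at -0.37 (0.38 in run 1, -0.49 in run 2). The 2 probes near the far end of the transcript thus moved together in run 2 and against the probe near its start. Between the WT arrays of the runs, A_52_P334670 and A_52_P161365 differed by -0.83 and -0.89 as run 2 minus run 1 (limma adjusted p = 9.34e-05 and 4.24e-05), while A_52_P334677 and A_52_P279391 differed by 0.01 and 0.10 (adjusted p = 0.958 and 0.617).

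Arntl encodes BMAL1, the partner without which the loop stops. Its probe spanned -1.23 to 0.13 in Per3 5/5, with a median of -0.89, and -1.24 to -0.54 in WT of run 1, with a median of -0.91. Per3 4/4 mice spanned 0.05 to 0.59, with a median of 0.43, and WT mice of run 2 -0.17 to 0.62, with a median of 0.32. In Per3 5/5, replicates 3, 5 and 6 lay above every WT array and the other 4 lay within the WT range but below the WT mean, and in Per3 4/4 every array lay within the WT range. The difference was 0.19 (-0.16 to 0.53, limma p = 0.277) in Per3 5/5 and 0.10 (-0.22 to 0.43, limma p = 0.518) in Per3 4/4, folds of 1.14 and 1.07. The highest Per3 5/5 value, 0.13, is that of replicate 3, the array with the highest 75th percentile of all (1546), and without that array the Per3 5/5 difference was 0.051 (-0.26 to 0.37, limma p = 0.742). Without WT replicate 8 the Per3 4/4 difference was 0.040 (limma p = 0.804).

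Npas2 encodes the forebrain counterpart of CLOCK. The level spanned -4.21 to -3.47 in Per3 5/5, with a median of -3.65, and -3.69 to -3.36 in WT of run 1, with a median of -3.53. Per3 4/4 mice spanned -4.64 to -4.07, with a median of -4.41, and WT mice of run 2 -4.73 to -3.52, with a median of -4.24. The signal exceeded background clearly, by the scanner's mark, on 29 of 30 arrays. Most knock-in arrays were on the low side, with 6 of 7 in Per3 5/5 and 6 of 8 in Per3 4/4 below their WT mean, but 4 of 7 and 8 of 8 were inside the WT range. The differences were -0.24 (-0.54 to 0.07, limma p = 0.128, adjusted p = 0.819) and -0.21 (-0.50 to 0.08, limma p = 0.142, adjusted p = 1.00), folds of 0.849 and 0.863, and they differed from each other by -0.02 (-0.45 to 0.40). The value in Per3 5/5 was -0.16 without Per3 5/5 replicate 3, the lowest array of that group, and -0.29 without replicate 4, the highest. Without WT replicate 8, the lowest WT array for Npas2, the value in Per3 4/4 was -0.30 with an unadjusted limma p of 0.0380, and without WT replicate 15, the highest, it was -0.12 with an unadjusted limma p of 0.361.

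Arntl2 encodes BMAL2. Probe A_51_P163015, bright by the scanner's mark on 26 of 30 arrays, spanned -5.22 to -3.40 in Per3 5/5, with a median of -4.12, and -4.27 to -3.29 in WT of run 1, with a median of -3.81. Per3 4/4 mice spanned -6.11 to -4.56, with a median of -5.11, and WT mice of run 2 -6.15 to -4.71, with a median of -5.28. In Per3 5/5, 3 of 7 arrays lay below every WT array and 4 inside the WT range, and in run 2 the ranges nearly coincided. The difference was -0.38 (-0.92 to 0.16, limma p = 0.159) in Per3 5/5, a fold of 0.768, and 0.04 (-0.46 to 0.55, limma p = 0.869) in Per3 4/4. Without Per3 5/5 replicate 3, the array with the highest signal, the Per3 5/5 value was -0.21 (-0.73 to 0.31, limma p = 0.413) and the difference between alleles was -0.25 in place of -0.42. The Per3 4/4 value was -0.081 without WT replicate 10, the lowest WT array of run 2 for this probe. Without Per3 4/4 replicate 5, the lowest of its group, it was 0.16. The other probe, A_52_P61188, was well above background on 5 of 30 arrays, had mean levels of -5.90 ± 0.52 (SD, n = 7) in Per3 5/5, -5.97 ± 0.45 (n = 7) in WT of run 1, -6.37 ± 0.60 (n = 8) in Per3 4/4 and -6.85 ± 0.82 (n = 8) in WT of run 2, and was not tested.

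**Figure D2:**
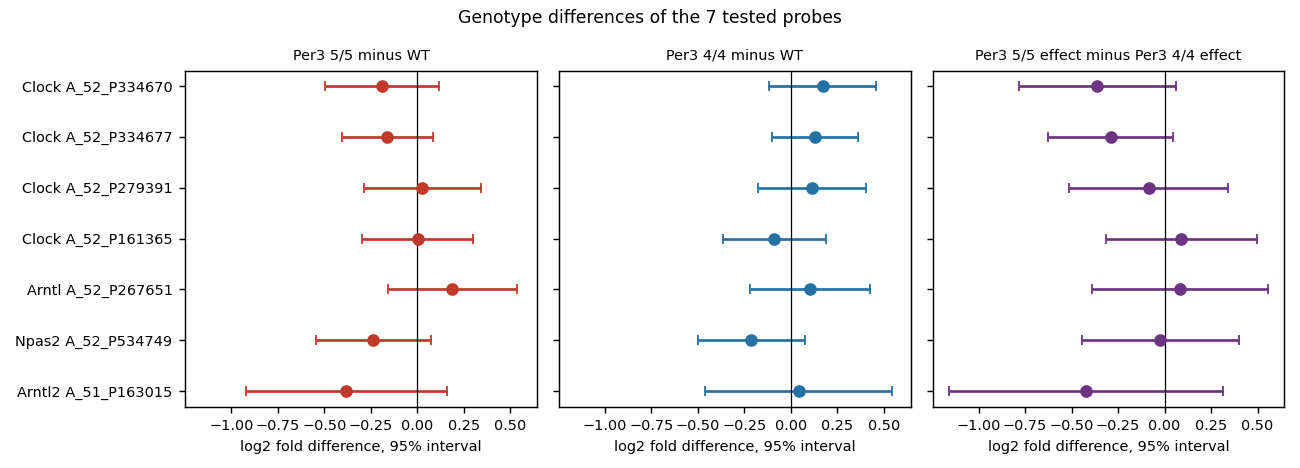
Log2 fold difference with its 95% confidence interval (x axis, limma) of the 7 tested probes (y axis) for Per3 5/5 minus WT, Per3 4/4 minus WT and the difference between these effects. Each interval includes 0, the widest being that of Arntl2, and the estimates furthest from 0 are -0.38 for Arntl2 in Per3 5/5 and -0.42 for Arntl2 in the difference.

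The intervals show how large a difference the model leaves possible, given 1 estimate of spread per probe that all groups of both runs share. For Clock, Arntl and Npas2 they reach no further than -0.54 and 0.53 in Per3 5/5 and -0.50 and 0.46 in Per3 4/4, that is folds of 0.686 to 1.45 and of 0.707 to 1.38, and for Arntl2 they reach from 0.528 to 1.12 and from 0.725 to 1.46. Pooled over the groups of both runs, the SD within groups was 0.213 to 0.285 for the Clock probes and 0.319 for Arntl. It was 0.280 for Npas2 and 0.513 for Arntl2, against a median of 0.336 over all tested probes. The spread was unequal between runs. Clock A_52_P334670 had SDs of 0.174 (Per3 5/5) and 0.086 (WT) in run 1, and 0.370 (Per3 4/4) and 0.348 (WT) in run 2. Arntl went the other way, with 0.479 and 0.321 in run 1 and 0.191 and 0.238 in run 2. With only the arrays of run 1, the limma SE of A_52_P334670 in Per3 5/5 was 0.083 in place of 0.151. Of the 7 probes, that of Arntl2 was the least precisely measured. For the tested probes nearest in level, the median SD was 0.267 with Clock A_52_P334670 and 0.359 to 0.404 with the other Clock probes. It was 0.275 with Arntl, 0.446 with Npas2 and 0.509 with Arntl2. Arntl was higher in run 2 than in run 1 by 1.16 in WT mice (limma adjusted p = 5.66e-06), whereas the run 2 minus run 1 difference was -0.61 (adjusted p = 0.00388, limma) for Npas2 and -1.49 (adjusted p = 2.06e-05, limma) for Arntl2, and in this the run cannot be told apart from any difference between the groups of mice.

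The genes that surround the positive arm did not pass the test either. Of 57 genes on 5 lists, with the brightest probe for each, 57 were tested and 0 rose or fell at an adjusted p under 0.05 in each comparison. Their median difference was -0.04 in Per3 5/5, -0.00 in Per3 4/4 and -0.07 between the alleles, beside medians of -0.02, 0.01 and -0.02 over all tested probes. Before adjustment 2 genes had a limma p under 0.05 in Per3 5/5, 1 in Per3 4/4 and 0 between the alleles.

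Among the 16 targets and repressors, the gene with the smallest p in Per3 5/5 was Per2, a core repressor of CLOCK:BMAL1, at -0.26 (SE 0.12, limma p = 0.0351, adjusted p = 0.796). In Per3 4/4 it was Tef, a PAR bZIP output gene, at -0.13 (SE 0.08, p = 0.100, limma). Between the alleles it was Nfil3, which represses the same sites that TEF and DBP activate, at 0.35 (SE 0.17, p = 0.0527, limma). These 3 values did not survive adjustment, and the list ranged from -0.26 to 0.21 in Per3 5/5 and from -0.15 to 0.23 in Per3 4/4.

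Among the 6 RORs and partners of REV-ERB, which set the level of Arntl, Ncor1, the corepressor that REV-ERB recruits, had the smallest p in both knock-ins, at -0.29 (SE 0.14, limma p = 0.0547) in Per3 5/5 and -0.25 (SE 0.13, limma p = 0.0734) in Per3 4/4. Between the alleles it was Rorb, an activator of Arntl, at -0.28 (SE 0.30, limma p = 0.363). Among the 12 coactivators and modifiers of CLOCK:BMAL1, Kmt2a, a histone H3 lysine 4 methyltransferase, was at -0.34 (SE 0.16, limma p = 0.0447, adjusted p = 0.796) in Per3 5/5. Wdr5, a subunit of the same methyltransferase complexes, was at -0.10 (SE 0.09, limma p = 0.260) in Per3 4/4, and Ncoa3, a coactivator with acetyltransferase activity, was at -0.22 (SE 0.15, limma p = 0.155) between the alleles. The median of this list was -0.13 in Per3 5/5 and -0.00 in Per3 4/4.

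Among the 12 kinases and ligases that set the lifetime of the clock proteins, Fbxl21, an F-box protein that ubiquitinates CRY, had the smallest p in both knock-ins. It was at 0.44 (SE 0.19, limma p = 0.0254, adjusted p = 1.00) in Per3 4/4 and at 0.33 (SE 0.20, limma p = 0.109) in Per3 5/5, and between the alleles the gene with the smallest p was Csnk1e, a kinase of PER, at -0.18 (SE 0.18, limma p = 0.315). Among the 11 other bHLH-PAS factors, which belong to the same protein family, it was Hif1a, a sensor of low oxygen, at 0.29 (SE 0.16, limma p = 0.0769) in Per3 5/5, its relative Hif3a at 0.34 (SE 0.18, limma p = 0.0656) in Per3 4/4, and the developmental factor Sim2 at -0.94 (SE 0.57, limma p = 0.109) between the alleles. This list held the widest range, from -0.95 to 0.29 in Per3 5/5.

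**Figure D3:**
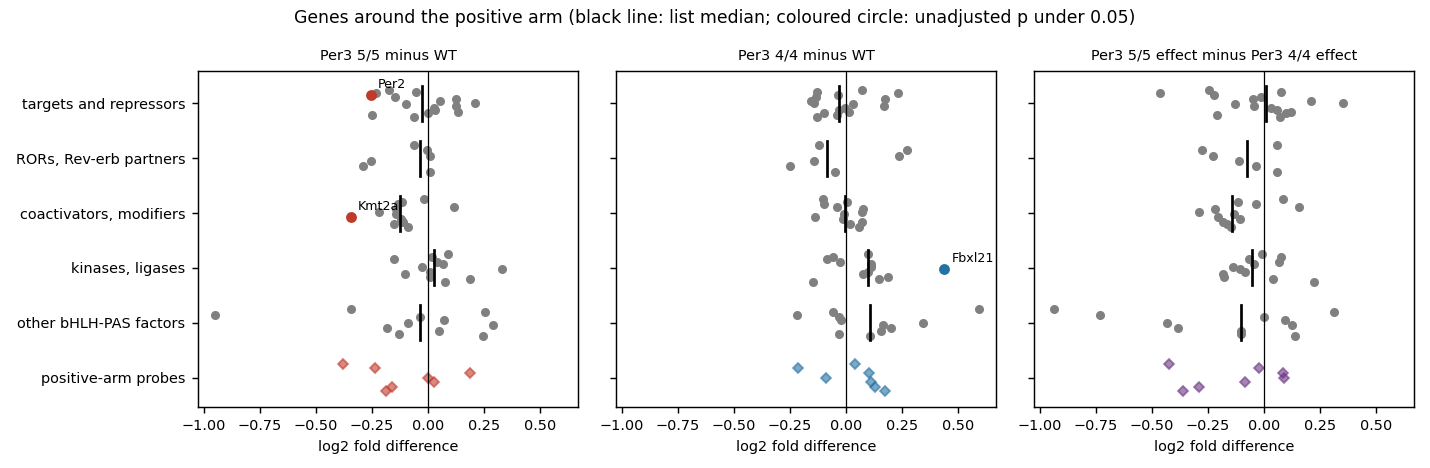
Log2 fold difference (x axis, limma) of 57 genes on 5 lists (grey circles, 1 per gene), with the list median as a black line, and of the 7 positive-arm probes (diamonds, lowest level), for Per3 5/5 minus WT, Per3 4/4 minus WT and the difference between them. The coloured circles are the 3 genes with an unadjusted p under 0.05, Per2 and Kmt2a in Per3 5/5 and Fbxl21 in Per3 4/4, none of which passed the adjusted threshold.

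Within genotypes the mice varied, and this variation was set against that of other clock genes. For each gene the brightest probe was taken, the mean of its genotype and run was subtracted on each of the 30 arrays, and Pearson's r and Spearman's rho were tested by permutation within groups (two-sided, 100000 permutations) over 70 pairs, with Benjamini-Hochberg adjustment over the pairs. With r, 4 pairs had an adjusted p under 0.05 and 16 an unadjusted p under 0.05. Clock, Arntl and Arntl2 correlated with many other probes, with a median absolute r of 0.36, 0.23 and 0.28 over all tested probes. For Npas2 this median was lower, at 0.16. The cause of these correlations was not tested. The central 95% of all tested probes had an r of -0.73 to 0.72 with Clock and of -0.61 to 0.60 with Arntl. With Npas2 the range was -0.46 to 0.39 and with Arntl2 it was -0.52 to 0.69.

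**Figure D4:**
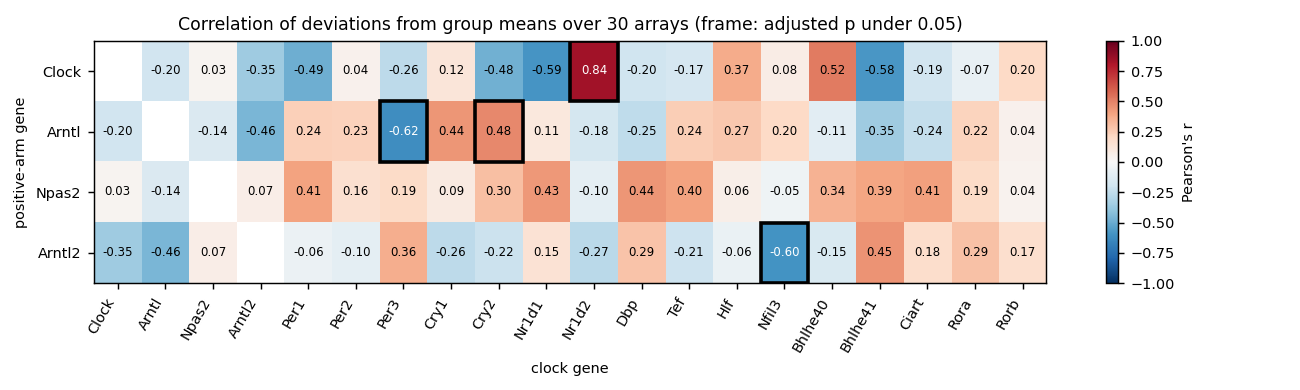
Pearson's r (colour and number) between deviations from group means of the 4 positive-arm genes (rows) and of one another and 16 other clock genes (columns) over 30 arrays. Frames mark the 4 pairs with an adjusted permutation p under 0.05, and the strongest value is that of Clock with Nr1d2 at 0.84.

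The strongest pair was Clock with Nr1d2, which encodes REV-ERB beta. Their deviations had r = 0.84 (permutation p = 2e-05, adjusted p = 0.0014) and rho = 0.70 (permutation p = 0.00015, adjusted p = 0.0105), and without the 2 arrays furthest from the median of Clock r was 0.79. Of all tested probes, 0.374% had an r with Clock at least as far from 0. The relation lay in run 2, where r was 0.90, and not in run 1, where it was 0.23 and where Clock itself varied little. WT replicate 13 was high for both genes, with deviations of 0.67 in Clock and 0.64 in Nr1d2, and Per3 4/4 replicate 7 was low for both, at -0.51 and -0.53. Leaving out each array in turn gave an r of 0.78 to 0.86. The other Clock probes followed Nr1d2 less, with r = 0.48 for A_52_P334677, 0.36 for A_52_P279391 and -0.28 for A_52_P161365, so the relation is that of 1 probe of Clock more than of all its probes.

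Arntl varied opposite to Per3, the gene that carries the human repeat in the knock-ins. The r was -0.62 (permutation p = 0.00039, adjusted p = 0.0137) and rho was -0.64 (permutation p = 0.00043, adjusted p = 0.0151), with r = -0.57 without the 2 furthest arrays, and 4.40% of all tested probes had an r with Arntl at least as far from 0. In run 1 r was -0.83 and in run 2 it was -0.38, which did not pass (adjusted permutation p = 0.431). Per3 5/5 replicate 3 had the highest deviation of Arntl, 0.82, and a Per3 deviation of -0.53, while Per3 5/5 replicate 1 had the lowest Arntl, -0.54, and a Per3 deviation of 0.32. Leaving out each array in turn gave an r of -0.75 to -0.57. Both this pair and the pair of Clock with Nr1d2 kept an adjusted p under 0.05 without each of the 30 arrays, and without Per3 4/4 replicates 6 and 7. The other Per genes had the opposite sign with Arntl, at r = 0.24 for Per1 and 0.23 for Per2. Neither passed (adjusted permutation p = 0.355 and 0.479).

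The other pairs that passed lost an adjusted p under 0.05 when some single arrays were left out. Arntl2 and Nfil3 had r = -0.60 (permutation p = 0.00089, adjusted p = 0.0208; rho = -0.56, permutation p = 0.00321, adjusted p = 0.0660), r = -0.48 without the 2 furthest arrays, and -0.64 and -0.57 within the runs. The adjusted p rose to 0.0525 without Per3 5/5 replicate 1, to 0.0586 without Per3 4/4 replicate 5 and to 0.0942 without WT replicate 10, the array with high striatal markers, and the other Nfil3 probe had r = -0.33. Arntl and Cry2, a core repressor, had r = 0.48 (permutation p = 0.00202, adjusted p = 0.0354; rho = 0.52, permutation p = 0.00377, adjusted p = 0.0660), r = 0.46 without the 2 furthest arrays, and 0.69 and 0.51 within the runs. Its adjusted p rose to between 0.0534 and 0.110 when any of 10 arrays was left out (Per3 5/5 replicates 3 and 5, Per3 4/4 replicate 5, WT replicates 2, 4, 6, 9, 12, 14 and 15), with r between 0.43 and 0.49, and the other Cry2 probe had r = 0.10. Of all tested probes, 7.60% were at least as far from 0 with Arntl2 as Nfil3, and 13.6% with Arntl as Cry2.

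**Figure D5:**
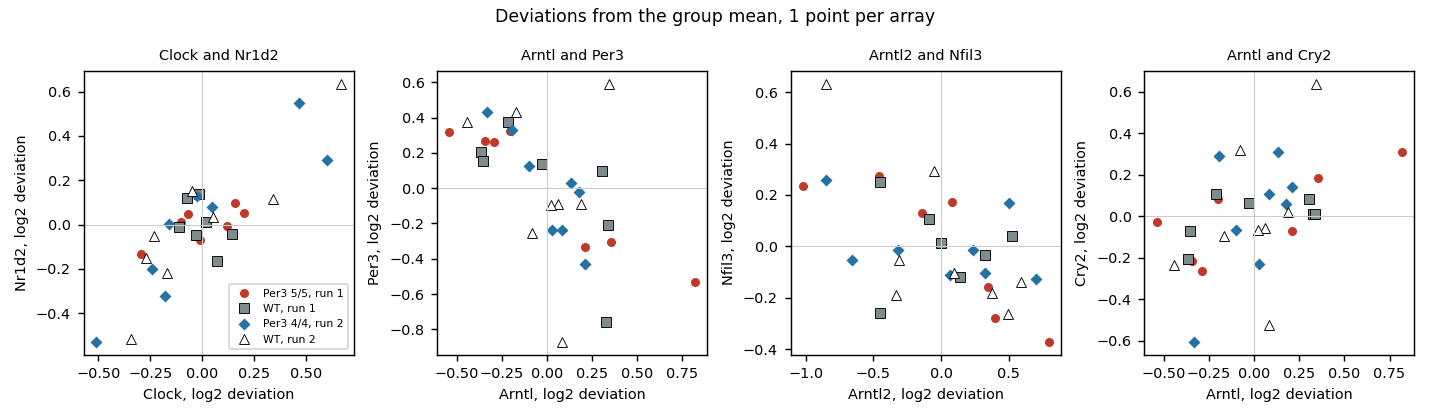
Log2 deviations from the mean of genotype and run, 1 point per array (30 arrays), for the 4 pairs of genes with an adjusted permutation p under 0.05, by genotype and run. Clock and Nr1d2 lie along a rising line drawn out by arrays of run 2 (r = 0.90, against 0.23 in run 1), and Arntl and Per3 along a falling one that is tighter in run 1 (r = -0.83) than in run 2 (r = -0.38).

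The remaining pairs did not pass. The strongest negative pair of Clock was with Nr1d1, which encodes REV-ERB alpha (r = -0.59, adjusted permutation p = 0.0881, rho = -0.45, and r = 0.02 in run 1). The strongest positive pair of Npas2 was with the output gene Dbp (r = 0.44, adjusted permutation p = 0.0881, rho = 0.39), and that of Arntl2 was with the repressor Bhlhe41 (r = 0.45, adjusted permutation p = 0.120, rho = 0.47). The strongest negative pair of Npas2 was with Arntl (r = -0.14), which pools r = -0.78 in run 1 and 0.49 in run 2. Among the 4 genes themselves, Arntl and Arntl2 had r = -0.46 (permutation p = 0.0181, adjusted p = 0.115). Clock and Arntl2 had r = -0.35, Clock and Arntl -0.20, Npas2 and Arntl2 0.07 and Clock and Npas2 0.03. Within run 1 and run 2, r was -0.78 and -0.03 for Arntl and Arntl2. It was 0.45 and -0.64 for Clock and Arntl2, and -0.44 and -0.14 for Clock and Arntl. For Npas2 it was 0.60 and -0.22 with Arntl2, and 0.66 and -0.11 with Clock. CLOCK and BMAL1, and NPAS2 and BMAL1, act as pairs of proteins, and neither pair of RNAs passed the test over all 30 arrays.

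Signal strength moved with these genes in run 1. Over the 14 arrays of run 1, the array's 75th percentile had r = -0.92 with Npas2, 0.78 with Arntl, -0.77 with Clock and -0.60 with Arntl2. Per3 5/5 replicate 3 was the array with the highest percentile, the highest Arntl, and the lowest Clock, Npas2 and Arntl2 of the 14 arrays. Without it the values were -0.87, 0.60, -0.56 and -0.25, and r in run 1 was -0.79 for Arntl with Per3, 0.52 for Arntl with Cry2 and -0.59 for Arntl2 with Nfil3, while that of Clock with Nr1d2 turned from 0.23 to -0.11. The part of signal strength in the correlations was not tested. Over all 30 arrays, 0 of 56 pairs of the 4 genes with 12 marker lists, the percentile and the share of spots above background had an adjusted p under 0.05, and 5 an unadjusted one. The furthest from 0 were Arntl2 with the share of spots above background (r = 0.55, adjusted permutation p = 0.0931, rho = 0.58), Arntl with endothelial and astrocyte markers (r = -0.49 each, adjusted permutation p = 0.233 and 0.227) and Arntl with the percentile (r = 0.44, adjusted permutation p = 0.0931). For Clock it was neuronal markers (r = 0.40) and for Npas2 pituitary markers (r = -0.37).

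The probes that varied most like each gene over the 30 arrays were found among all tested probes of other genes by Pearson's r. For Clock they were those of Slain2 (r = 0.92), Ubtd2 (0.92), Lrp12 (0.91), A_52_P437884, which the array names only by a transcript identifier (0.91), and Fam126b (0.91). With these, r was 0.54 to 0.83 in run 1 and 0.92 to 0.97 in run 2. For Arntl they were Fam26e (0.87), Grpel2 (0.86), Fig4 (0.86), Tbk1 (0.86) and Yipf5 (0.86), which were closer in run 1 (0.90 to 0.92) than in run 2 (0.64 to 0.77). Npas2 had the loosest companions, A_52_P811152 (0.70), A_52_P368262 (0.69) and A_51_P425783 (0.69), all named by identifier only, with Syn2 (0.69) and Celf2 (0.68). For Arntl2 they were Zfp369 (0.91), Map3k4 (0.91), Cdk8 (0.89) and the probes A_52_P470605 (0.89) and A_52_P723727 (0.88), with r of 0.88 to 0.95 in either run. Of the 20 probes, those with a gene name belong to no gene on the clock lists. Those named by identifier only were not assigned to a gene. These values are the highest of 29947 and carry no test.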

How the data were processed

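For each of the 30 arrays the authors deposited a scanner file (Feature Extraction) with the intensity of every spot, corrected for background and spatial trend within the array and for nothing between arrays. The log2 table that the authors deposited was, per the methods, shifted to the 75th percentile. It also turned out to have a median of 0 for every probe within a run, so it served only as an alternative. Here, outlier spots by the scanner's mark (36 to 117 on an array) were dropped, log2 intensities were set relative to the 75th percentile of their array, and repeated spots of a probe were averaged. The test took in a probe that the scanner software marked as well above background in a genotype at least as often as not, for 1 genotype or more. Precision is limited by the number of arrays.

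The 30 arrays entered 1 linear model, with a genotype term and a run term (limma 3.58.1, R 4.3.3), and p-values were Benjamini-Hochberg adjusted with a threshold of 0.05. Correlations used Python 3.11.15, numpy 2.4.6 and scipy 1.17.1, with a spot marked as an outlier set to its group mean. Both steps were tested on simulated data. The genes named were every probe of the 4 genes, Per3, the gene with the smallest p in each list and comparison, the 5 probes most like each member, and the pairs past the threshold with the strongest of each member. Arrays that stand apart were singled out, with the Y-linked genes and Xist, once their values were known. The members and lists were chosen with earlier results of these data known.

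Alternatives were no run term, only the arrays of the run, the slide as a random or fixed block, normexp background correction (offset 50, on medians), a block for the replicate number, quantile normalization, the percentile over detected probes, the authors' log2 table, 2 other filters, outlier spots kept, array weights, the methods' t-test, and each array left out. Leaving out Per3 4/4 replicates 6 and 7, or these with Per3 4/4 replicate 5 and WT replicates 10 and 15 (the lowest signal and the striatal markers), was added after values had been seen. Each run held 4 slides, each with knock-in and WT arrays. Samples are separate mice by the study's design text.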

Additional observations from a re-analysis of the deposited data

Results flagged for a closer look

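Clock probe A_52_P279391 had 1 array far from the others of its group. WT replicate 6 was at -3.01, the highest of the 7 WT arrays of run 1, against -3.63 for the next and a mean of -3.80 for the other 6. Without it the Per3 5/5 difference of this probe was 0.14 in place of 0.03. Of 28 groups of arrays examined in this way (7 probes in 4 groups) this was the only one, and chance alone marks about 1 in 20 groups.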

How the results depend on the processing

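Only 5 of the 7 probes were tested under the filter for probes well above background on every array, which left out those of Npas2 and Arntl2. All 7 were tested under the other alternatives. The number that passed was 0 in each comparison under each alternative except the fit with no run term, in which 5 passed for the difference between alleles. By construction that fit sets arrays of different runs against each other: it turned the Per3 5/5 values of A_52_P334670 (0.25), A_52_P279391 (-0.026), Arntl (-0.43), Npas2 (0.089) and Arntl2 (0.41), the Per3 4/4 values of A_52_P334670 (-0.21) and Arntl2 (-0.65), and the differences of A_52_P334670 (0.47), Arntl (-1.07), Npas2 (0.59) and Arntl2 (1.06), and it called 1 probe of all in Per3 5/5 and 14865 for the difference. Other reversals were of values near 0, and their cause was not tested. In Per3 5/5, A_52_P161365 was -0.057 with normexp, -0.013 with the slide as a random block and -0.030 with it fixed. In Per3 4/4, A_52_P279391 was -0.016 with 5 arrays left out, and Arntl2 was -0.0062 with quantile normalization, -0.018 with normexp, -0.0096 without replicates 6 and 7 and -0.044 with 5 arrays left out. For the difference, A_52_P279391 was 0.00071 with quantile normalization, 0.023 with array weights and 0.044 with 5 arrays left out, Arntl was -0.091 with array weights and -0.022 with 5 left out, and Npas2 was 0.025 with quantile normalization, 0.018 with normexp, 0.029 with array weights and 0.043 without replicates 6 and 7.

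Of all probes, 0 passed in Per3 5/5 by limma (1849 at an unadjusted p under 0.05), 2 with the replicate number as a block and 10 with array weights. The numbers do not pair the mice (correlation of same-numbered arrays -0.29 to 0.40), and 0 of the 7 probes passed with the block. In Per3 4/4, 4 passed, against 7 with normexp, outlier spots kept, only probes above background on every array, or without replicates 6 and 7, 9 with the slide as a random block or array weights, and 0 with only the arrays of the run or the methods' t-test. With each array left out the counts were 0 to 3 in Per3 5/5 (2 without replicate 5, 3 without WT replicate 7), 2 to 8 in Per3 4/4 (2 without replicate 4 or WT replicate 8, 7 without WT replicate 9 or 11, 8 without replicate 7) and 0 to 2 for the difference (2 without Per3 5/5 replicate 5). Values that changed sign then were in Per3 5/5 A_52_P279391 (-0.035 to 0.14) and A_52_P161365 (-0.041 to 0.044), in Per3 4/4 A_52_P161365 (-0.17 to 0.0037) and Arntl2 (-0.081 to 0.16), and in the difference A_52_P279391 (-0.16 to 0.026), A_52_P161365 (-0.0023 to 0.17), Arntl (-0.053 to 0.17) and Npas2 (-0.11 to 0.060).

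Of the clock pairs, 4 passed, against 9 with normexp, 9 with run 1 alone (of the 4, Arntl with Per3 alone among them), 3 with run 2 alone (of the 4, Clock with Nr1d2 alone, and Arntl with Per3 at r = -0.38, adjusted p = 0.431), and 2 to 6 with each array left out (2 without Per3 4/4 replicate 5). With normexp Arntl2 and Nfil3 had r = -0.12 (adjusted p = 0.732), and with 5 arrays left out -0.47 (0.187), when Arntl and Cry2 had 0.52 (0.112). Of the pairs with markers and signal, 0 passed, against 3 with normexp, 5 in run 1, 2 in run 2, and 0 to 1 with each array left out (1 without Per3 5/5 replicate 2 or 3 or WT replicate 1 or 15).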
